A study of Mus musculus with 14 samples.

Results

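The HOX genes examined here were all genes whose probe symbol on the Illumina MouseRef-8 v2.0 bead array was Hoxa, Hoxb, Hoxc or Hoxd followed by a paralogue number between 1 and 13. They comprised 38 genes with 50 probes, out of 16593 named genes and 25697 probes in the deposited non-normalized table. The HOXA cluster on chromosome 6 gave 10 genes and 17 probes, the HOXB cluster on chromosome 11 gave 10 genes and 13 probes, the HOXC cluster on chromosome 15 gave 9 genes and 11 probes, and the HOXD cluster on chromosome 2 gave 9 genes and 9 probes. HOX genes encode homeodomain transcription factors that specify position along the body axis and the limbs, and their order within a cluster follows the order in which they are expressed from head to tail. Polycomb complexes keep the clusters silent in pluripotent cells, while skin fibroblasts keep a HOX pattern that depends on the body site they came from. Low paralogue numbers (up to 3) are called anterior below, middle numbers (4 to 8) central and high numbers posterior.

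Gene expression was measured on 14 arrays in 6 groups. A-iPSC-ZSCAN10 (2 arrays, clones 3 and 7) were induced pluripotent stem cells (iPSC) made from fibroblasts of 1.5-year-old tail tip skin with retroviral OCT4, SOX2, KLF4 and MYC plus a doxycycline-inducible ZSCAN10, a zinc finger protein found in pluripotent cells, induced with doxycycline at 2 μg/ml. A-iPSC (2 arrays, clones 16 and 19) were made from the same kind of fibroblast with the reprogramming factors but no added ZSCAN10. Y-iPSC (2 arrays, clones 12 and 4) came from skin fibroblasts of E17.5 embryos by the same viruses. ESC (2 arrays, D and H) were embryonic stem cells, A-SC (3 arrays) the aged tail tip fibroblasts and Y-SC (3 arrays) the embryonic skin fibroblasts, both from B6CBAF1 mice. All iPSC groups carry the reprogramming retroviruses and ESC do not. Age, developmental stage and body site differ together between A and Y groups and cannot be told apart. A pair of fibroblast arrays has a label with no clone code and are called A-SC uncoded and Y-SC uncoded; the others are A-SC 1.3 and 1.4 and Y-SC 16 and 17. No label says whether arrays of a group came from separate animals or cultures, and the p-values cover array-to-array spread alone. Sex-linked transcripts differed between arrays within A-SC, within Y-SC and within Y-iPSC, so the spread in those groups was not between repeats of 1 animal's cells.

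Probe levels are background-corrected, quantile normalized log2 intensities, for which the lowest value on any array was 4.23. A probe counted as detected on an array at a detection p under 0.05, and it was tested with limma if it was detected on every array of at least 1 group, which held for 14742 probes. A call below means a Benjamini-Hochberg adjusted p under 0.05 over these probes, and fold changes are log2 values ± SE. Levels of different probes cannot be set against each other. Between 47.6% and 52.3% of all probes were detected per array. Summed intensity of 11 fibroblast markers was 17990 to 36160 on the fibroblast arrays and 739 to 5949 on the others, and that of 8 pluripotency markers was 5027 to 35790 on the iPSC and ESC arrays and 217 to 256 on fibroblast arrays. Of these 8 markers, A-iPSC-ZSCAN10 had 5 and 6 detected, A-iPSC 4 and 4, Y-iPSC 8 and 4 and ESC all 8 on both arrays. Esrrb was at 4.44 to 5.17 on all 6 iPSC arrays, against 12.85 and 12.64 in ESC. Nanog was at 4.44 to 6.92, against 12.12 and 12.07, Zfp42 at 4.89 to 5.76, against 11.36 and 11.13, and Dppa5a at 7.15 to 11.95, against 13.79 and 13.94. Pou5f1 was at 11.37 to 13.05, against 12.26 and 11.58, and Sox2 at 9.41 to 11.69, against 9.11 and 9.46. Pou5f1 (OCT4) and Sox2 are among the retrovirally introduced factors. Their part in the summed intensity, and whether their probes also read viral transcripts, was not tested. Zscan10 stood at 7.96 and 8.71 in A-iPSC-ZSCAN10, 5.17 and 4.48 in A-iPSC (not detected at 4.48), 7.57 and 6.44 in Y-iPSC and 9.53 and 9.92 in ESC.

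Of the 38 HOX genes, 29 were detected on at least 1 array and 21, with 24 probes, were tested. The 9 genes never detected were Hoxa3, Hoxa6, Hoxa10, Hoxb1, Hoxb13, Hoxc5, Hoxc8, Hoxc11 and Hoxd11. Another 8 genes (Hoxa11, Hoxb3, Hoxb8, Hoxc4, Hoxc12, Hoxd1, Hoxd12 and Hoxd13) were detected on some arrays but not on all arrays of any group and were not tested. Per array, the number of HOX genes detected was 24 on each of the Y-SC arrays and lowest on ESC H, with 11. On every array of its group, 16 HOX genes were detected in A-iPSC-ZSCAN10, 16 in A-iPSC, 14 in Y-iPSC, 11 in ESC, 14 in A-SC and 20 in Y-SC. HOXD genes made up 4 of these in A-iPSC-ZSCAN10 and 5 in A-iPSC, against 2 in Y-iPSC and 2 in ESC. No HOXD gene was detected on all A-SC arrays, against 4 on all Y-SC arrays. Several probes of a gene disagreed for Hoxa9, where 1 of 3 probes was never detected, and for Hoxa13, where 1 of 3 probes was detected on all 14 arrays and the other two on 2 arrays or none.

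**Figure D1:**
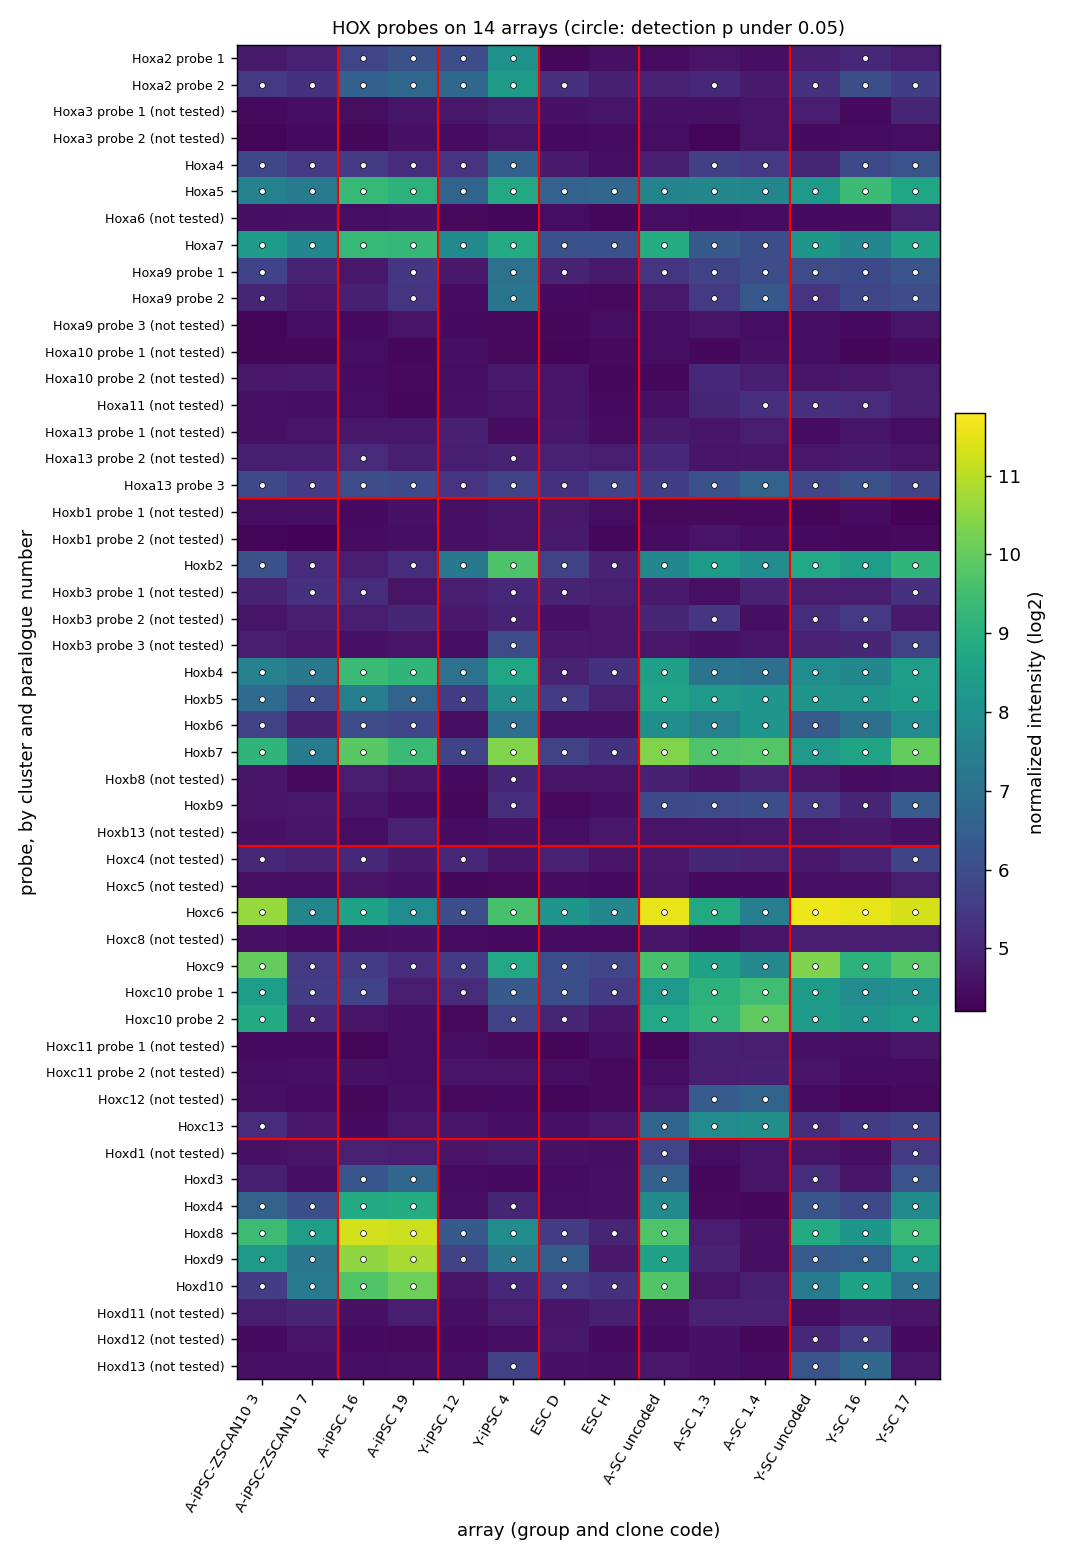
Normalized log2 intensity of the 50 HOX probes (rows, by cluster and paralogue number) on the 14 arrays (columns, by group); a white circle marks detection, and red lines separate clusters and groups. The HOXD block from Hoxd3 to Hoxd10 is bright in A-iPSC 16 and 19 and in A-SC uncoded and dark in A-SC 1.3 and 1.4.

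The results turn most on 4 neighbouring HOXD genes, Hoxd4, Hoxd8, Hoxd9 and Hoxd10, all of which were high in A-iPSC and split between the A-SC arrays. Their promoters are shown because these genes carry the differences described below; each line gives the 250 bases before the annotated start, from RefSeq in build GRCm38.p6, 5′ to 3′, with CG dinucleotides, the sites of DNA methylation, in capitals.
Hoxd4 (chr2:74721728-74721977, plus strand): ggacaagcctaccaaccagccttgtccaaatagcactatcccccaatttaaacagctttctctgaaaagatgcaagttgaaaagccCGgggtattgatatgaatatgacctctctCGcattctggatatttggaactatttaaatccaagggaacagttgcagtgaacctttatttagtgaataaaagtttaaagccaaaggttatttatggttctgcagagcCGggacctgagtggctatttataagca
Hoxd8 (chr2:74704365-74704614, plus strand): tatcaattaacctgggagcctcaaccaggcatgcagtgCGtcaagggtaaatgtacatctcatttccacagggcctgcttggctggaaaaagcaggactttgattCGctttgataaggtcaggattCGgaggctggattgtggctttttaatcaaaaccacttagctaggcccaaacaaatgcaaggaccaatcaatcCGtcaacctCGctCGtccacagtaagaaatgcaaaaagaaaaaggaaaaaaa
Hoxd9 (chr2:74697513-74697762, plus strand): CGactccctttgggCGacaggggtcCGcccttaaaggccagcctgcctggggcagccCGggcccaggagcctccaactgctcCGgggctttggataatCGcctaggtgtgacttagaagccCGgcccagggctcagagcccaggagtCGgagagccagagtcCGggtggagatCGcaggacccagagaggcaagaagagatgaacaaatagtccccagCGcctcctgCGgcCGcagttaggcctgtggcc
Hoxd10 (chr2:74691641-74691890, plus strand): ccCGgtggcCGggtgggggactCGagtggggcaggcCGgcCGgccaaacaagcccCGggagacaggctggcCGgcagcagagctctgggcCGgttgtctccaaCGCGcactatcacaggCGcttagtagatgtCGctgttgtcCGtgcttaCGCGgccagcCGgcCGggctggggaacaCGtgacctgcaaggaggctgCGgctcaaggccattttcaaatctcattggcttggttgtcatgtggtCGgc
The 4 promoters differ in composition. Hoxd4 has 3 CG dinucleotides and 40.4% G and C, Hoxd8 has 6 and 44.4%, Hoxd9 has 13 and 65.2%, and Hoxd10 has 20 and 65.6%. Over all 32851 promoters of the same length the median was 6 CG, and 17.9% held at least as many as Hoxd10. On either strand, the homeodomain core TAAT matched 2 times in Hoxd8 and 1 time in Hoxd9, with no match in the windows of Hoxd4 and Hoxd10; 54.9% of all promoters hold it. The retinoic acid receptor core AGGTCA matched 1 time each in Hoxd4, Hoxd8 and Hoxd10, against 14% of all promoters with a match, and TTTATG, bound by CDX factors, matched 1 time in Hoxd4, against 10.8%. The joint HOX and PBX site TGATNNAT had no match in any of the 4 windows and occurs in 7.68% of promoters. No motif was shared by all 4 windows, and a base could belong to matches of more than 1 motif.

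In the source cells, aged tail tip fibroblasts had more Hoxc13 than embryonic skin fibroblasts, and their own arrays split over the HOXD cluster. Hoxc13, the most posterior HOXC gene and a factor of hair and nail formation, stood at 6.65, 7.87 and 7.96 in A-SC (uncoded, 1.3 and 1.4), against 5.18, 5.51 and 5.75 in Y-SC. The difference was 2.01 ± 0.32 (limma adjusted p = 0.0199, n = 3 arrays each). This was the single HOX probe called of 24, higher in A-SC, where 0.414% of all tested probes were called in either direction, 0.19% higher and 0.224% lower. The median change of the 24 HOX probes was -0.36, against -0.03 over all tested probes, and 3 HOX probes (12.5%) had an unadjusted p under 0.05, against 10.3% of all tested probes. The Hoxc13 call was lost without Y-SC uncoded (1.87, adjusted p = 0.0747), without A-SC 1.3 (1.82, adjusted p = 0.0676) and without A-SC 1.4 (1.78, adjusted p = 0.111). Its neighbour Hoxc12, which was not tested, was detected only on A-SC 1.3 and 1.4, at 6.39 and 6.64. It was undetected at 4.61 on A-SC uncoded and at 4.32 to 4.44 on the Y-SC arrays. The untested posterior genes Hoxd13 and Hoxd12 went the other way. Hoxd13 was detected on 2 Y-SC arrays (4.62 to 6.74 over the group) and on no A-SC array (4.46 to 4.69). Hoxd12 was detected on 2 Y-SC arrays (4.42 to 5.53 over the group) and on no A-SC array (4.37 to 4.56). Hoxc10, with 2 probes, stood at 8.25, 9.08 and 9.48 (first probe) and 8.74, 9.21 and 9.93 (second probe) in A-SC, against 7.86 to 8.35 and 8.12 to 8.34 in Y-SC, and was not called for either.

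The aged fibroblast arrays did not share one HOXD state. Hoxd8 stood at 9.72 on A-SC uncoded and at 4.77 and 4.54, not detected, on A-SC 1.3 and 1.4; the Y-SC arrays had 8.86, 8.21 and 9.34 (uncoded, 16 and 17). As deposited, before any correction, these intensities were 769.9, 125.5 and 126.8 in A-SC, against 584.4, 393.9 and 827.2 in Y-SC. Hoxd10, a posterior gene of the limb and hindbody, was at 9.74 on A-SC uncoded and undetected at 4.63 and 4.84 on the other A-SC arrays, with 7.32, 8.61 and 7.08 in Y-SC. The same split held for Hoxd9 (8.54, then 4.93 and 4.50, against 6.38, 6.47 and 8.35 in Y-SC) and Hoxd4 (7.83, then 4.39 and 4.37, against 6.23, 5.88 and 7.84 in Y-SC). A-SC uncoded thus stood above every Y-SC array for Hoxd8, Hoxd9 and Hoxd10, while both other A-SC arrays stood below all of them. Hoxd3 was also detected on A-SC uncoded, at 6.52, and on neither 1.3 nor 1.4.

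Over the 5 tested HOXD probes the median range within A-SC was 4.04, against 0.62 over all tested probes, and only 0.231% of tested probes had a range as large as the 5.18 of Hoxd8. The mean absolute difference over these probes was 3.85 and 3.90 between A-SC uncoded and A-SC 1.3 and 1.4, and 0.22 between 1.3 and 1.4. A-SC uncoded was nearer to Y-SC 17, at 0.72, and to A-iPSC 16 and 19, at 0.98 and 1.07. Outside HOXD, Hoxc6, a central gene of the trunk and forelimb level, split in the same way, with 11.56 on A-SC uncoded and 8.83 and 7.46 on 1.3 and 1.4, against 11.31 to 11.61 in Y-SC. So did Hoxa7, with 8.90, 6.32 and 6.02 in A-SC against 7.74 to 8.59 in Y-SC. With all A-SC arrays in the fit none of the HOXD probes was called: Hoxd8 differed by -2.46 ± 1.07 (adjusted p = 0.465).

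Without A-SC uncoded the count of called HOX probes went to 4 of 24, where 0.577% of all tested probes were called. Hoxc13 was higher in A-SC (2.44 ± 0.23, adjusted p = 0.00189), and Hoxd8 (-4.15 ± 0.47, adjusted p = 0.00456), Hoxd10 (-2.94 ± 0.52, adjusted p = 0.0349) and Hoxa7 (-2.01 ± 0.35, adjusted p = 0.0325) were lower. Leaving out this array was an alternative listed with the others, and the array was singled out for description after its values were seen. A-SC 1.3 and 1.4, and Y-SC 16 and 17, were written to the deposited table with at most 1 decimal and the other arrays with more. Among the arrays with 1 decimal, Hoxd8 was lower by -4.12 ± 0.54 in A-SC (adjusted p = 0.0105) and 3 HOX probes were called, where 0.665% of all tested probes were; between the 1 A-SC and 1 Y-SC array of the other format Hoxd8 differed by 0.86 ± 0.77 (adjusted p = 0.677) and no HOX probe was called, where 1.68% of all tested probes were.

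Summed macrophage markers separated the fibroblast groups. Over 5 markers the sums were 437, 328 and 433 in A-SC (2 detected), against 856, 2155 and 4085 in Y-SC (4 detected). Lyz2 was at 7.50, 6.68 and 7.82 in A-SC, against 9.42, 10.78 and 11.78 in Y-SC, and Adgre1 and Tyrobp were also higher in Y-SC. Cd14 overlapped, at 7.51, 7.24 and 7.07 in A-SC, against 6.03, 7.83 and 8.10 in Y-SC. Ptprc was at 4.45 to 4.85 in both groups. Keratinocyte markers summed to 1647 on Y-SC uncoded, with 6 of 8 detected, and to between 190 and 210 on the other fibroblast arrays. Their part in the Hoxc13 difference was not tested. Other transcripts also set A-SC uncoded apart. The summed intensity of 5 endothelial cell markers was 3637 on A-SC uncoded with 4 of 5 detected (Pecam1 at 11.13, Cdh5 at 9.40, Tek at 8.57 and Tie1 at 8.31; Kdr not), against 129 and 153 on A-SC 1.3 and 1.4 and 125 to 139 in Y-SC. Fibroblast markers summed to between 27680 and 31540 on all A-SC arrays. A-SC uncoded, Y-SC uncoded and Y-SC 17 had the Y-linked Eif2s3y at 10.11, 10.04 and 9.78, while A-SC 1.3, A-SC 1.4 and Y-SC 16 had it undetected and had Xist, expressed from the inactive X, at 8.27, 8.68 and 8.45. Y-SC 16, which also has Xist, had Hoxd8 at 8.21. The part of endothelial cells, of sex and of export format in the HOXD values of A-SC was not tested. In such bulk samples fewer cells expressing a gene and less RNA per cell cannot be told apart.

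**Figure D2:**
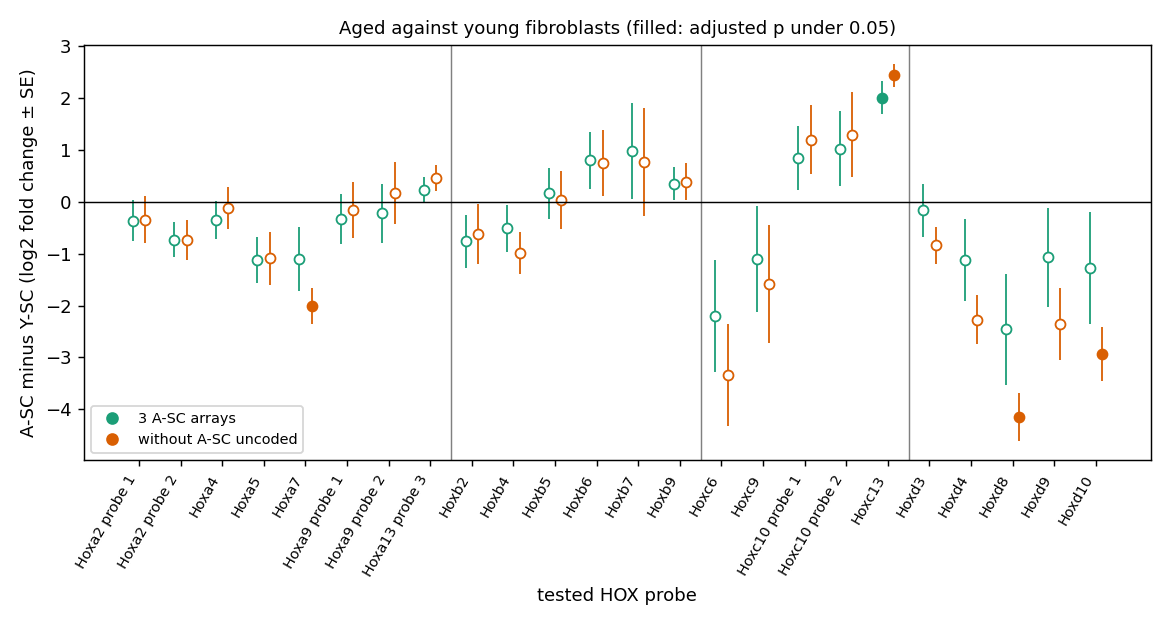
Log2 fold change ± SE of A-SC minus Y-SC for the 24 tested HOX probes, with 3 A-SC arrays (green) and without A-SC uncoded (orange); filled points have an adjusted p under 0.05. Hoxc13 is filled in both, and Hoxa7, Hoxd8 and Hoxd10 are filled without A-SC uncoded, at -2.01, -4.15 and -2.94.

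The A-iPSC arrays had higher HOXD levels than the Y-iPSC arrays for all 5 tested HOXD genes, of which Hoxd4, Hoxd9 and Hoxd10 passed the test. Hoxd3 entered the tested set only through its detection on both A-iPSC arrays, so its direction in contrasts with A-iPSC was partly set by that filter. Hoxd8 stood at 11.29 and 11.19 in A-iPSC (clones 16 and 19), against 6.34 and 7.92 in Y-iPSC (clones 12 and 4). Hoxd9 stood at 10.54 and 10.80 in A-iPSC, against 5.77 and 7.25 in Y-iPSC. The A-iPSC arrays lay within 0.26 of each other for Hoxd9. Hoxd10 was at 9.73 and 10.12 in A-iPSC, against 4.61 (not detected) and 5.05 in Y-iPSC, and Hoxd4 was at 8.86 and 8.91, against 4.48 (not detected) and 4.98. Hoxd3, the most anterior of the block, was at 6.23 and 6.70 in A-iPSC and undetected at 4.44 and 4.41 in Y-iPSC. Among the HOXD genes outside the tested set, Hoxd1 (4.91 and 4.82), Hoxd12 (4.41 and 4.38) and Hoxd13 (4.49 and 4.53) were not detected in A-iPSC, and Hoxd11 was detected on none of the 14 arrays.

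Of the 24 HOX probes, 4 were called between A-iPSC and Y-iPSC, 3 higher and 1 lower, where 10.1% of all tested probes were called, 6.04% higher and 4.1% lower. Hoxd10 was higher by 5.10 ± 1.32 (limma adjusted p = 0.031), Hoxd9 by 4.17 ± 1.17 (adjusted p = 0.0433) and Hoxd4 by 4.16 ± 0.96 (adjusted p = 0.0191), with n = 2 arrays each. Hoxd8 (4.11 ± 1.31, adjusted p = 0.0693) and Hoxd3 (2.04 ± 0.62, adjusted p = 0.0591) had positive values and did not pass. The median over the 5 HOXD probes was 4.16, against -0.02 over all tested probes; the HOXA, HOXB and HOXC medians were -0.66, 0.23 and -0.46. Each of the 3 HOXD calls was lost when any 1 of the 4 arrays was left out, with adjusted p between 0.064 and 0.229 and values between 3.43 and 5.32. Without A-iPSC 16 or without A-iPSC 19, Hoxb2 was the single HOX call, where 6.02% and 2.82% of all tested probes were called. Some keratinocyte markers moved with this contrast. Sums over 8 markers were 265 and 243 in A-iPSC (3 and 2 detected), against 11140 and 4360 in Y-iPSC (4 detected). Krt14 was at 4.97 and 5.03, against 12.13 and 9.60, and Krt17, Lgals7 and Sfn were also lower in A-iPSC. Perp (5.23 and 5.09, against 4.56 and 4.65) and Krt15 (5.25 and 4.88, against 4.69 and 4.57) were higher there. Krt5 and Trp63 were at 4.35 to 4.52 in both groups. The part of these markers in the HOX values was not tested.

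The single lower call was Hoxb2, an anterior gene of hindbrain patterning. It stood at 4.81 (not detected) and 5.16 in A-iPSC, against 7.28 and 9.68 in Y-iPSC, a change of -3.49 ± 0.62 (adjusted p = 0.00525). It passed with each array left out, with values between -4.69 and -2.29. Hoxa2, another anterior gene, was at 5.78 and 6.09 (first probe) and 6.54 and 6.73 (second probe) in A-iPSC, against 5.99 and 8.10 and 6.77 and 8.33 in Y-iPSC, and was not called. Both Y-iPSC arrays had Zic1, a positional factor of another family, at 9.77 and 9.58, and it was undetected in A-iPSC at 4.47 and 4.59.

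The Y-iPSC clones differed between themselves over the HOX genes. The median range over the 24 HOX probes was 1.57 in Y-iPSC, against 0.37 over all tested probes, and 0.30 in A-iPSC, against 0.26. Y-iPSC 12 had the lower value for Hoxb7 (5.76, against 10.35 on Y-iPSC 4), Hoxc6 (5.99, against 9.58), Hoxc9 (5.52, against 8.72) and Hoxa9 (4.46 and undetected, against 7.16, second probe). With both Y-iPSC clones in the fit, none of Hoxb7, Hoxb4, Hoxa5 and Hoxa9 was called between A-iPSC and Y-iPSC. With Y-iPSC 12 alone, A-iPSC was higher by 3.87 for Hoxb7, 2.21 for Hoxb4 and 2.52 for Hoxa5. With Y-iPSC 4 alone, A-iPSC was lower for both tested Hoxa9 probes, by -2.00 and -2.04. The differences with 1 clone follow from which clone is kept, so no result is read from them. Xist was detected on Y-iPSC 4, at 8.43, and not on Y-iPSC 12, and fibroblast markers summed to between 1026 and 2059 on these arrays; their part in the HOX values was not tested.

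**Figure D3:**
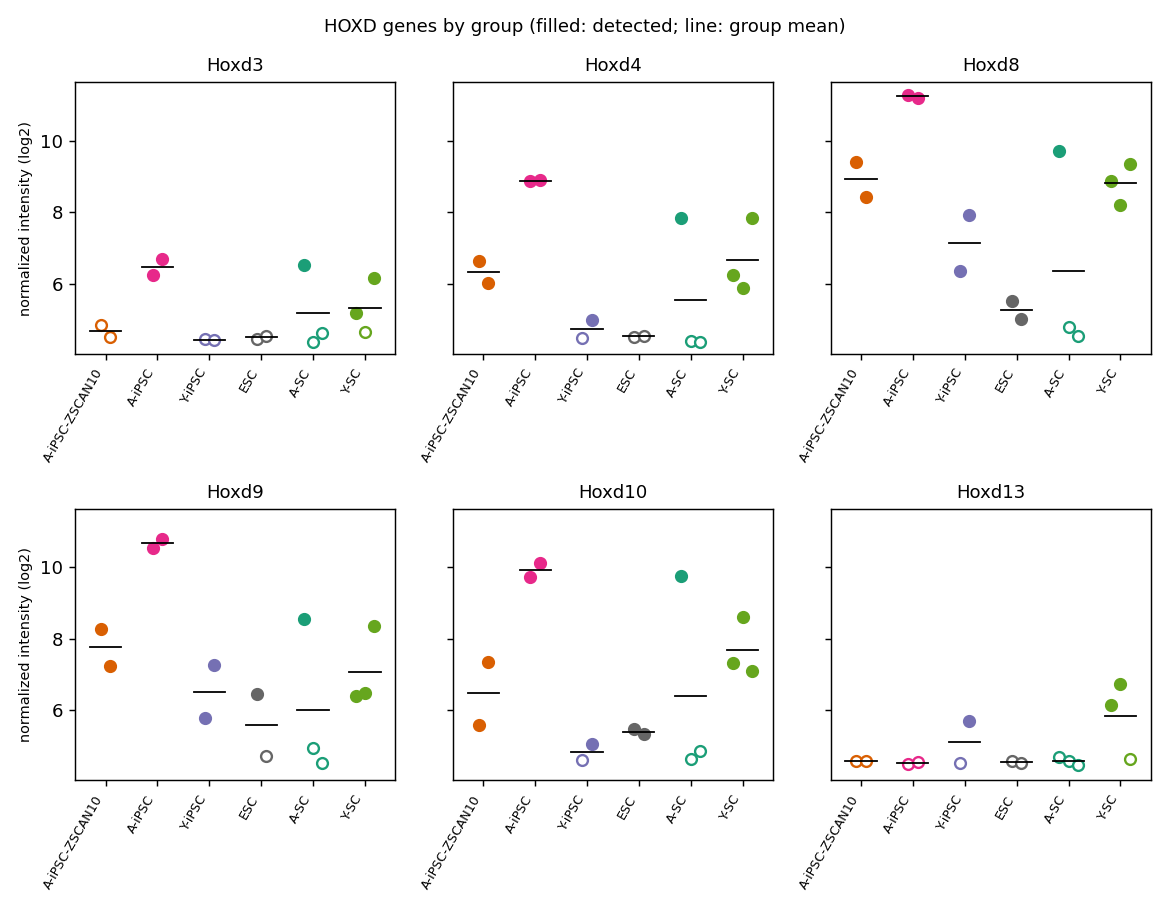
Normalized log2 intensity of 6 HOXD genes on each array (points, filled where detected), by group, with the group mean as a line. A-iPSC has the highest group mean for Hoxd3, Hoxd4, Hoxd8, Hoxd9 and Hoxd10, and A-SC is split between 1 high array and 2 undetected ones for each of these genes.

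In A-iPSC-ZSCAN10 the mean level of each of the 5 tested HOXD genes was below that of A-iPSC, the group through which alone Hoxd3 was tested. For Hoxd4, Hoxd8, Hoxd9 and Hoxd10 the mean was also above that of Y-iPSC, while Hoxd3 was undetected in both groups. No HOXD difference from A-iPSC or Y-iPSC passed. Hoxd8 stood at 9.41 and 8.43 in A-iPSC-ZSCAN10 (clones 3 and 7), against 11.29 and 11.19 in A-iPSC, a change of -2.32 ± 1.31 (adjusted p = 0.264). Hoxd9 had 8.28 and 7.22, against 10.54 and 10.80 (-2.93 ± 1.17, adjusted p = 0.114), and Hoxd10 had 5.58 and 7.35, against 9.73 and 10.12 (-3.47 ± 1.32, adjusted p = 0.0978). Hoxd4 had 6.63 and 6.02, against 8.86 and 8.91 (-2.56 ± 0.96, adjusted p = 0.0948), and Hoxd3 was undetected at 4.83 and 4.50, against 6.23 and 6.70 (-1.80 ± 0.62, adjusted p = 0.072). Every A-iPSC-ZSCAN10 array was below every A-iPSC array for these genes. The share of all tested probes whose groups did not overlap was not counted, so no result is read from this separation. Hoxb4, a gene of hindbrain and blood stem cells, was the only call, at 7.58 and 7.25 in A-iPSC-ZSCAN10, against 9.37 and 9.16 in A-iPSC (-1.85 ± 0.55, adjusted p = 0.0415), where 15.7% of all tested probes were called, 7.33% higher and 8.37% lower. It lost the call without any 1 of these arrays, with adjusted p between 0.112 and 0.213. Other transcripts moved with this contrast: keratinocyte markers summed to 7004 and 10800 in A-iPSC-ZSCAN10 (4 of 8 detected), against 265 and 243 in A-iPSC (3 and 2 detected). Krt14, Krt17, Lgals7 and Sfn were higher in A-iPSC-ZSCAN10. Perp (4.66 and 4.86, against 5.23 and 5.09) and Krt15 (4.78 and 4.81, against 5.25 and 4.88) were lower there. The Y-linked Kdm5d was at 6.89 and 6.63, against undetected levels of 4.51 and 4.35, and Eif2s3y at 9.76 and 9.07, against 5.93 and 4.66. Fibroblast markers summed to 5949 and 3406, against 739 to 1175. Their part in the HOX values was not tested.

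Against Y-iPSC, 1 HOX probe was called, where 1.34% of all tested probes were, 0.631% higher and 0.712% lower. The second probe of Hoxa2 was lower in A-iPSC-ZSCAN10, at 5.48 and 5.32, against 6.77 and 8.33 in Y-iPSC (-2.15 ± 0.42, limma adjusted p = 0.029), and the first probe was undetected at 4.76 and 4.91 in A-iPSC-ZSCAN10. The call on the second probe passed without Y-iPSC 12 (-2.93 ± 0.33, adjusted p = 0.000776) and in none of the other 3 fits with an array left out, where adjusted p reached 0.159. Mean HOXD values were higher in A-iPSC-ZSCAN10 for Hoxd4, Hoxd8, Hoxd9 and Hoxd10, and Hoxd3 was undetected in both groups. The median over the 5 probes was 1.60, and none passed. For Hoxd9 the groups overlapped, at 8.28 and 7.22 against 5.77 and 7.25. Without Y-iPSC 12 the count was 5, where 5.14% of all tested probes were called, all lower: both Hoxa2 probes, both tested Hoxa9 probes and Hoxb2. Without clone 7, Hoxc10 differed by 3.82 (second probe), against 1.93 ± 0.89 (adjusted p = 0.385) with both clones. The larger value follows from keeping clone 3, where Hoxc10 was higher. The HOX calls changed with any 1 array of this comparison left out, so their count is not read as a result on HOX genes.

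The clones with ZSCAN10 differed between themselves over HOXC. Hoxc9, a posterior gene of the thoracic level, stood at 10.01 in clone 3 and 5.46 in clone 7, and its range of 4.55 was matched by 0.0543% of tested probes. Hoxc10 followed, at 8.86 and 5.09 (second probe), and Hoxc6 stood at 10.63 and 7.70. The value of clone 3 lay above the A-SC arrays for Hoxc9 (7.79 to 9.59 in A-SC) and within their range for Hoxc6 (7.46 to 11.56 in A-SC). With both clones, neither Hoxc9 (2.39 ± 1.26, limma adjusted p = 0.23) nor Hoxc10 (1.74 ± 0.76, adjusted p = 0.144, and 2.41 ± 0.89, adjusted p = 0.0889) was called against A-iPSC. With clone 3 alone, the differences were 4.66 for Hoxc9 and 3.16 and 4.29 for Hoxc10. Their size follows from keeping the clone with the higher values, so no result is read from them. Of 11 fibroblast markers, 8 were higher on clone 3 than on clone 7 and 3 lower; Pdgfra was at 9.37 and 5.98, Col1a1 at 10.54 and 10.45 and Dcn at 5.78 and 7.41, and the positional factor En1 was at 7.00 and 4.67. Their part in the HOXC values was not tested.

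**Figure D4:**
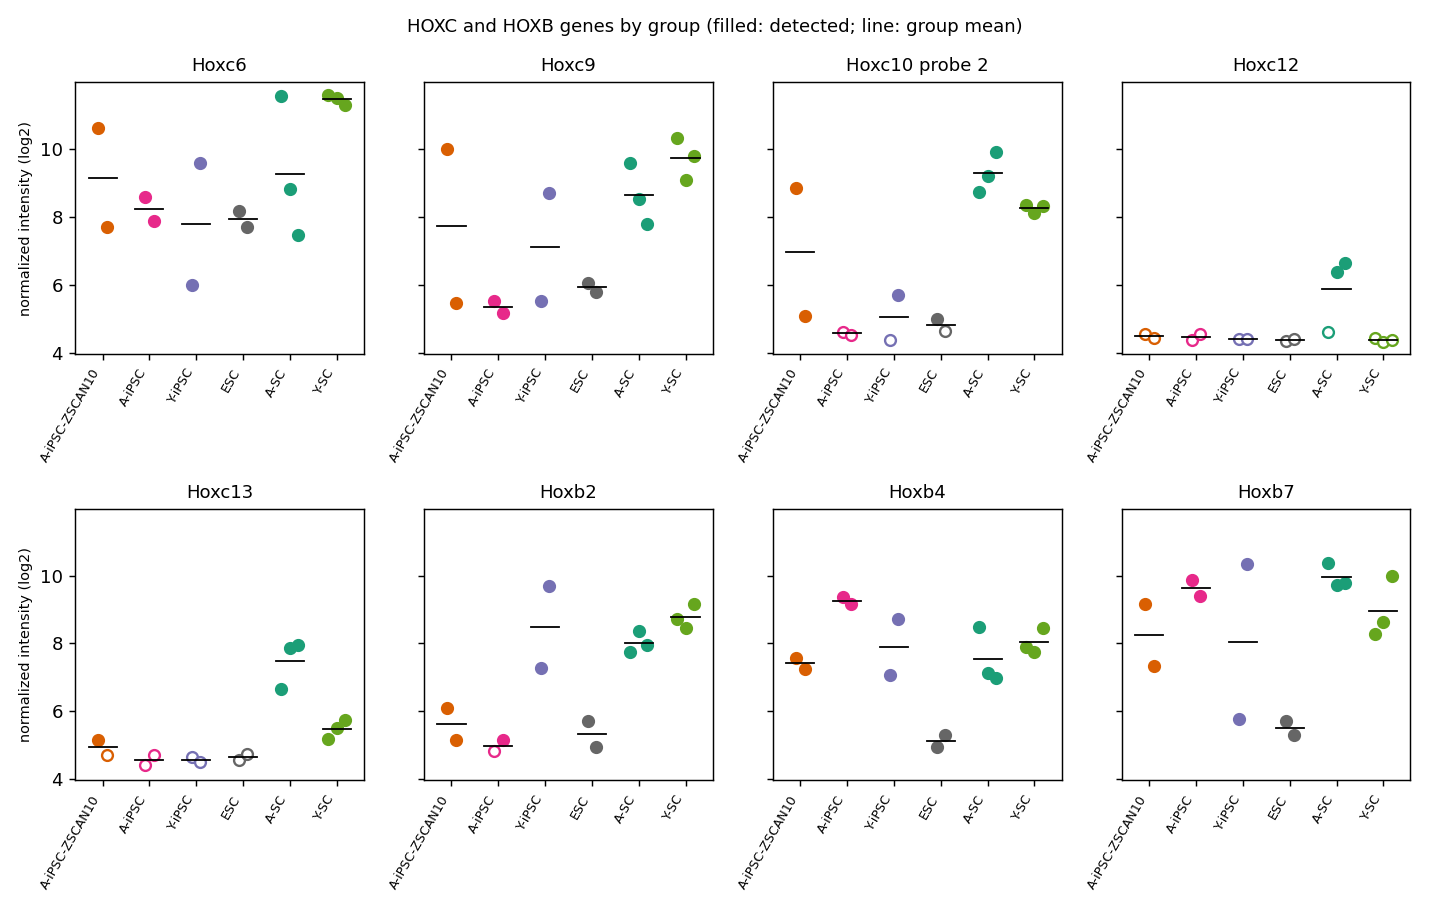
Normalized log2 intensity of 5 HOXC and 3 HOXB probes on each array (points, filled where detected), by group, with the group mean as a line. For Hoxc9 the A-iPSC-ZSCAN10 points lie apart at 10.01 and 5.46, Hoxc12 is detected in 2 A-SC arrays only, and Hoxb4 and Hoxb7 are lowest in ESC.

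Between A-iPSC and the aged fibroblasts, 4 of 5 HOXD probes and 4 of 8 HOXA probes were called higher, 4 of 5 HOXC probes lower, and of the HOXB probes 1 higher and 3 lower. In all, 16 of the 24 HOX probes were called, 9 higher and 7 lower, where 33% of all tested probes were called, 17.6% higher and 15.4% lower. By cluster the median change was 3.52 for HOXD, 0.72 for HOXA, -1.37 for HOXB and -3.30 for HOXC, against 0.04 over all tested probes. Hoxd8 was higher by 4.90 ± 1.2 (adjusted p = 0.00864) and Hoxd9 by 4.68 ± 1.07 (adjusted p = 0.0058), and both A-iPSC arrays lay above all A-SC arrays for Hoxd4, Hoxd8 and Hoxd9, A-SC uncoded included. For Hoxd10 the groups overlapped, since A-SC uncoded, at 9.74, was level with A-iPSC 16, at 9.73. The share of all tested probes with separated groups was not counted, so no result is read from separation. Without A-SC uncoded, Hoxd8 was higher by 6.59 ± 0.52 (adjusted p = 8.36e-06). The count of called HOX probes was 13 without A-SC uncoded, 10 without A-SC 1.3, 9 without A-SC 1.4, 7 without A-iPSC 16 and 6 without A-iPSC 19, where 36%, 28%, 26%, 21.2% and 18.6% of all tested probes were called.

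The lower side was led by HOXC. Hoxc10 fell in A-iPSC to 5.74 and 4.78 (first probe) and to undetected levels on the second, against 8.25 to 9.48 and 8.74 to 9.93 in A-SC; by the second probe it was at least 18.3-fold lower (adjusted p = 0.00107). Such bounds set the detected group's mean against the lowest signal of detected probes on the arrays without detection. In A-iPSC Hoxc13 was lower by at least 5.25-fold (adjusted p = 0.00011). Hoxb2 (-3.04 ± 0.57, adjusted p = 0.00182) and Hoxb6 (-1.99 ± 0.62, adjusted p = 0.0284) fell, while Hoxb4 rose by 1.75 ± 0.50 (adjusted p = 0.02). Hoxa2 rose by both probes, by at least 1.78-fold on the first (adjusted p = 0.0291) and by 1.72 ± 0.38 on the second (adjusted p = 0.00504). Hoxa4 differed by 0.02 ± 0.41 (adjusted p = 0.972), while Hoxa5 and Hoxa7 rose by 1.50 ± 0.49 (adjusted p = 0.0349) and 2.19 ± 0.69 (adjusted p = 0.029).

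With added ZSCAN10, 5 HOX probes were called against A-SC, all lower, where 21.1% of all tested probes were called, 11.2% higher and 9.88% lower. They were Hoxb2 (-2.40 ± 0.57, adjusted p = 0.0125), Hoxb5 (-1.95 ± 0.55, adjusted p = 0.0271), Hoxb6 (-2.63 ± 0.62, adjusted p = 0.012), Hoxb9, and Hoxc13 (-2.56 ± 0.36, adjusted p = 0.000726). Hoxb9 was undetected in A-iPSC-ZSCAN10 and at least 1.94-fold lower (adjusted p = 0.0211). Without A-SC uncoded the count was 9, where 21.7% of all tested probes were called, with Hoxd8 higher by 4.26 ± 0.52 (adjusted p = 0.000357), Hoxd9 by 3.03 ± 0.75 (adjusted p = 0.0165), Hoxd4 by 1.94 ± 0.51 (adjusted p = 0.0218) and Hoxa7 by 1.88 ± 0.38 (adjusted p = 0.0064). It was 3 without A-SC 1.4 and 1, Hoxc13, without clone 7, where 13.3% and 6.97% of all tested probes were called.

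For young cells, 5 HOX probes were called between Y-iPSC and Y-SC, 2 higher and 3 lower, where 23.4% of all tested probes were called, 11.7% in each direction. Both probes of Hoxa2 rose, by 2.17 ± 0.44 (adjusted p = 0.00471) and 1.90 ± 0.38 (adjusted p = 0.00408). Hoxc6 (-3.70 ± 1.2, adjusted p = 0.0445) and both probes of Hoxc10 (-2.36 ± 0.69, adjusted p = 0.0283, and -3.22 ± 0.81, adjusted p = 0.0141) fell. Hoxd8 stood at 6.34 and 7.92 in Y-iPSC, below the 8.21 to 9.34 of Y-SC, without passing. The calls changed with either Y-iPSC array left out, which leaves 1 array in that group. The count was 3 without Y-SC uncoded or without Y-SC 17. The share of all tested probes called in those fits is not set beside it, so it is not read as a result on HOX genes.

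The change on reprogramming was then compared between aged and young cells. Of the HOX probes, 1 was called in this difference of differences, where 3.81% of all tested probes were, 2.39% higher and 1.42% lower. Hoxd4 differed by 5.27 ± 1.25 (limma adjusted p = 0.0395): it was higher by 3.35 ± 0.88 in A-iPSC against A-SC, while the Y-iPSC arrays had 4.48 and 4.98 and the Y-SC arrays 6.23, 5.88 and 7.84. All 5 HOXD probes had positive values with an unadjusted p under 0.05, with a median of 5.27, Hoxd3 being tested only through A-iPSC. Such a p was found for 9 of the 24 HOX probes (37.5%) and for 18.6% of all tested probes. Hoxd4 passed in 2 of 10 fits with an array left out, those without Y-SC 16 (5.66, adjusted p = 0.0481) and without A-SC uncoded (6.42, adjusted p = 0.000825), and adjusted p reached 0.151 without A-iPSC 19. Without A-SC uncoded 8 HOX probes passed, where 6.13% of all tested probes did, among them Hoxd8 (8.26 ± 0.70, adjusted p = 0.000272), Hoxd10 (8.04 ± 0.77, adjusted p = 0.000511) and Hoxd9 (6.51 ± 1.02, adjusted p = 0.00553). That array was singled out after its values were seen, and with it in the fit none of Hoxd8, Hoxd9 and Hoxd10 passed.

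Set against embryonic stem cells, where most HOX genes are kept silent, A-iPSC had the most HOX calls. Of the 24 probes 12 were called in A-iPSC against ESC, all higher, where 34.9% of all tested probes were called, 17.2% higher and 17.7% lower. All 5 tested HOXD probes were among them, and their median was 4.54. Of these, Hoxd3 was tested only through its detection in A-iPSC. Hoxd8 had 5.52 and 5.0 in ESC and differed by 5.98 ± 1.31 (adjusted p = 0.00477), and Hoxd9 had 6.45 and 4.71 (the second not detected) and differed by 5.09 ± 1.17 (adjusted p = 0.00608). Hoxd10 was higher by 4.54 ± 1.32 (adjusted p = 0.0197). Hoxd4 was undetected in ESC and at least 15.5-fold higher in A-iPSC (adjusted p = 0.00498), and Hoxd3 at least 2.89-fold higher (adjusted p = 0.0283).

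Of the tested probes of the other clusters, 4 of 8 in HOXA and 3 of 6 in HOXB were called higher; Hoxa4 (0.72 ± 0.45, adjusted p = 0.25) and Hoxb6 (1.38 ± 0.68, adjusted p = 0.139) were among those that did not pass. Hoxb4 stood at 9.37 and 9.16 in A-iPSC, against 4.95 and 5.30 in ESC (4.14 ± 0.55, adjusted p = 0.000238), and Hoxb7 at 9.87 and 9.39, against 5.70 and 5.30 (4.13 ± 1.12, adjusted p = 0.0145). Hoxa7 stood at 9.29 and 9.25, against 6.10 and 6.11 (3.16 ± 0.75, adjusted p = 0.00735), and Hoxa5 at 9.28 and 9.07, against 6.60 and 6.72 (2.51 ± 0.54, adjusted p = 0.00419). Hoxa5, Hoxa7, Hoxb4, Hoxd4 and Hoxd8 passed under all the alternatives run. Hoxb5 had 7.45 and 6.66 in A-iPSC, against 5.51 and 4.91 in ESC (1.84 ± 0.60, adjusted p = 0.0334), and Hoxa2 was called by both probes, by the second at 6.54 and 6.73 against 5.26 and 4.86 (1.57 ± 0.42, adjusted p = 0.0131). No HOXC probe was called, with a median of -0.25. The count of 12 went to 7 without A-iPSC 16, 6 without A-iPSC 19, 7 without ESC D and 5 without ESC H, where 25.5%, 18.7%, 21.7% and 20.2% of all tested probes were called. Hoxd3, Hoxd10, Hoxb5, Hoxb7 and the first probe of Hoxa2 lost their calls in each of these fits. Hoxd9 lost it without ESC H (4.23, adjusted p = 0.0629), and the second probe of Hoxa2 without A-iPSC 19 (1.47, adjusted p = 0.0815) and without ESC H (1.37, adjusted p = 0.0935). Keratinocyte markers summed to 265 and 243 in A-iPSC, against 2673 and 1528 in ESC. Krt14, Krt17 and Sfn were higher in ESC, while Perp was lower there (4.82 and 4.76, against 5.23 and 5.09). The part of these markers was not tested.

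Against ESC, Y-iPSC had 4 HOX probes called, all higher, where 14.1% of all tested probes were called, 7.1% higher and 6.95% lower. Hoxb2 had 7.28 and 9.68 in Y-iPSC, against 5.71 and 4.95 in ESC (3.14 ± 0.62, adjusted p = 0.00623), and Hoxb4 had 7.06 and 8.71, against 4.95 and 5.30 (2.76 ± 0.55, adjusted p = 0.00667). Both Hoxa2 probes were higher, the second by 2.49 ± 0.42 (adjusted p = 0.00243) and the first at least 4.32-fold (adjusted p = 0.00464). The HOXD median was 0.20. Without Y-iPSC 12 the count was 11, where 14.9% of all tested probes were called. Hoxb2 lost its call without ESC H (2.76, adjusted p = 0.0746), and Hoxb4 without Y-iPSC 4 (1.93, adjusted p = 0.056) and without ESC D (2.58, adjusted p = 0.0583). In A-iPSC-ZSCAN10 against ESC, 1 probe was called, Hoxb4, at 7.58 and 7.25 against 4.95 and 5.30 (2.29 ± 0.55, adjusted p = 0.0189), where 12.3% of all tested probes were called, 6.19% higher and 6.08% lower. All 24 HOX probes had positive values (median 1.05), against 7341 of all 14742 tested probes (median 0). Among the 24, Hoxb9, Hoxd3 and the first probe of Hoxa2 were undetected in both groups. An unadjusted p under 0.05 was found for 6 HOX probes (25%), against 26.6% of all tested probes. Hoxb4 lost its call with any 1 array of this comparison left out. Without clone 7 of A-iPSC-ZSCAN10, the clone with the lower HOXC values, Hoxc9 differed by 4.09, a size that follows from keeping clone 3. Whether the iPSC groups differ in these contrasts was read from the direct comparisons above, because all 3 contrasts share the ESC arrays.

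**Figure D5:**
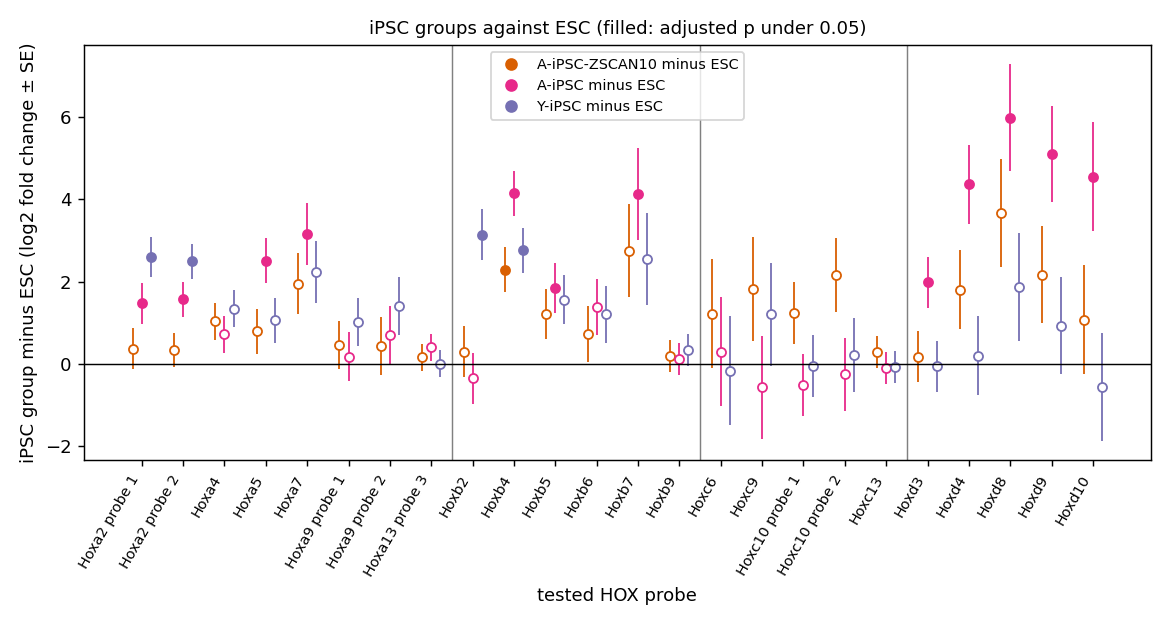
Log2 fold change ± SE against ESC of the 24 tested HOX probes for A-iPSC-ZSCAN10 (orange), A-iPSC (pink) and Y-iPSC (violet); filled points have an adjusted p under 0.05. All 5 HOXD points of A-iPSC are filled, from 1.98 for Hoxd3 to 5.98 for Hoxd8, and Hoxb4 is filled in all 3 groups. Hoxd3 was tested only through its detection in A-iPSC.

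Genes that flank the clusters were read beside them. Of 24 flanking genes, 3 on each side of each cluster, 15 had a tested probe; none was called in A-SC minus Y-SC, where 0.414% of all tested probes were, and 1 in A-iPSC minus Y-iPSC, where 10.1% were, so neither count sets them apart. Beside HOXD, Atp5g3 differed by -0.33 (adjusted p = 0.336) and Mtx2 by -0.18 (adjusted p = 0.844) between A-iPSC and Y-iPSC, and Evx2 and Lnpk were detected on no array. The 1 call was Evx1, a homeobox gene next to Hoxa13, undetected at 5.0 and 5.12 in A-iPSC, against 6.38 and 7.83 in Y-iPSC (-2.04 ± 0.47, adjusted p = 0.0191). In A-iPSC-ZSCAN10 it had 7.17 and 8.26, which was higher (2.65 ± 0.47, adjusted p = 0.00384).

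HOX cofactors and regulators were read from lists written with earlier results of these data known. None of the TALE cofactors (7 tested), cluster-neighbouring and upstream homeobox genes (3), positional factors (15), Polycomb repressors (19), trithorax and H3K27 demethylase genes (9) or retinoic acid pathway genes (10) was called in A-SC minus Y-SC, where 0.414% of all tested probes were. Between A-iPSC and Y-iPSC, 10.1% of all tested probes were called. Of the lists, 1 of 15 positional factors and 1 of 3 upstream and neighbouring genes were called lower. Called higher were 1 of 10 retinoic acid pathway genes and 1 of 19 Polycomb repressors, with no call in the other lists. Zic1 (-5.15 ± 0.37, adjusted p = 1.7e-05) and Evx1 were lower. Rxra, a retinoid receptor (2.39 ± 0.49, adjusted p = 0.0107), and Ezh1, a Polycomb methyltransferase (1.22 ± 0.29, adjusted p = 0.0197), were higher. Between A-iPSC-ZSCAN10 and A-iPSC, 15.7% were called. Rxra (-3.64 ± 0.49, adjusted p = 0.000812), Ezh1 (-1.42 ± 0.29, adjusted p = 0.007) and the Polycomb reader Cbx7 (-3.03 ± 0.68, adjusted p = 0.0125) were lower. The Polycomb subunit Bmi1 (1.45 ± 0.39, adjusted p = 0.0264) and the limb factor Prrx1 (2.17 ± 0.64, adjusted p = 0.0389) were higher. With Evx1, these were the only list genes called: 1 higher and 2 lower of 19 Polycomb repressors, 1 lower of 10 retinoic acid pathway genes, 1 higher of 15 positional factors and 1 higher of 3 upstream and neighbouring genes. In neither contrast are these counts read as a result on HOX regulators. Meis1 and Meis2, partners of HOX proteins on DNA, were higher than in ESC in A-iPSC-ZSCAN10 (3.23 ± 0.53 and 2.84 ± 0.37), in A-iPSC (2.32 ± 0.53 and 3.10 ± 0.37) and in Y-iPSC (3.41 ± 0.53 and 3.85 ± 0.37), with adjusted p of at most 0.00563. Cdx1, a HOX regulator of the trunk, was lower than in ESC by -2.94 ± 0.35, -3.39 ± 0.35 and -3.29 ± 0.35 in these groups, with adjusted p of at most 0.000256.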

How the data were processed

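In the deposited non-normalized table, each probe has a bead intensity and a detection p-value on each array, per the file headers. The authors' value table also holds intensity on a linear scale; the submitters' processing notes name lumi, with no version or role given in the sources used here. Its columns had the same ranks as the non-normalized intensity (Spearman 1) and served as an alternative. Gene names came from the platform annotation, with 1719 probes unnamed. Background correction with quantile normalization (neqc, offset 16) and 1 linear model over all 14 arrays (8 residual degrees of freedom, 11 comparisons) were run in limma 3.58.1 under R 4.3.3, and tested on simulated data. HOX genes called in A-SC minus Y-SC, among iPSC and ESC, or in the difference of reprogramming changes were to be described array by array, up to 10 per comparison by fold, and the others by ranges or counts. The members and lists were chosen with earlier results of these data known. Fits by export format were added after seeing the data. The closest arrays of a group correlated at 0.986 over tested probes. The number of arrays limits precision.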

Additional observations from a re-analysis of the deposited data

Results flagged for a closer look

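Hoxd4 was marked because its change on reprogramming differed between aged and young cells by a test of the difference itself, at 5.27 ± 1.25 on the log2 scale (limma adjusted p = 0.0395). Hoxc12 was marked because its probe, outside the tested set, was detected on A-SC 1.3 (6.39) and A-SC 1.4 (6.64) and on no Y-SC or ESC array. No group had the 4 arrays needed to look for outlying arrays by Dixon's test.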

How the results depend on the processing

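Counts of HOX probes called in each comparison depended on the processing, while no named gene reversed. Of 25 results on named genes, 5 passed in every setting and 8 with each array left out. In A-SC minus Y-SC (1 call) the count was 0 without background correction, with the authors' value table, without the detection filter, with only the groups compared and within the export format with more decimals, and 3 within that with 1 decimal. In A-iPSC minus A-SC (16) it was 10 without the filter and 9 with export format as a block. In A-iPSC-ZSCAN10 minus A-SC (5) it was 3 without background correction and with the authors' table, 11 with array weights and 1 with the block. In Y-iPSC minus Y-SC (5) it was 3 without background correction, with the authors' table and with only the groups compared, and 2 with array weights. In A-iPSC minus Y-iPSC (4) it was 1 without the filter and 2 with only the groups compared. In A-iPSC-ZSCAN10 minus A-iPSC (1) it was 4 without background correction and with the authors' table, 0 with median scaling and without the filter, 2 with cyclic loess, detection p under 0.01 and a trended robust prior, and 10 with array weights and with only the groups compared. In A-iPSC-ZSCAN10 minus Y-iPSC (1) it was 0 without background correction, with the authors' table, without the filter and with only the groups compared, and 3 with median scaling, cyclic loess, detection p under 0.01, array weights and the trended robust prior. In A-iPSC-ZSCAN10 minus ESC (1) it was 0 without background correction and with the authors' table, 8 with array weights, 2 with the block and 9 with only the groups compared; in Y-iPSC minus ESC (4) it was 1 with only the groups compared. In the difference of reprogramming changes (1) it was 3 without background correction, with the authors' table and with detection p under 0.01, 2 with median scaling and the trended robust prior, 0 without the filter and with only the groups compared, 6 with array weights and 4 with the block. The cause was not tested. The share of all tested probes called in each setting is not set beside these counts, so a changed count is not read as a result on HOX genes. Leaving out 1 array gave counts of 0 to 4 in A-SC minus Y-SC, 6 to 13 in A-iPSC minus A-SC, 1 to 9 in A-iPSC-ZSCAN10 minus A-SC, 2 to 10 in Y-iPSC minus Y-SC, 1 to 5 in A-iPSC minus Y-iPSC, 0 to 3 in A-iPSC-ZSCAN10 minus A-iPSC, 0 to 5 in A-iPSC-ZSCAN10 minus Y-iPSC, 5 to 7 in A-iPSC minus ESC, 0 to 3 in A-iPSC-ZSCAN10 minus ESC, 3 to 11 in Y-iPSC minus ESC and 0 to 8 in the difference. Where a group is left with 1 array, that array is assumed to vary like the other groups. Median scaling put the median change of all tested probes at 0.15 in A-iPSC-ZSCAN10 minus A-SC and 0.16 in A-iPSC-ZSCAN10 minus A-iPSC. With it, all calls split into 2331 higher and 1080 lower in the first, against 1654 and 1456 with quantile normalization, and 1515 and 963 in the second, against 1080 and 1234. Cyclic loess split the calls of A-SC minus Y-SC into 27 higher and 19 lower, against 28 and 33. Probes not detected on any array of a group have only a bound there.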
